A study of Mus musculus with 23 samples.

Results

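CTCF crosslink sites in introns and within 100 nt of an exon were examined for their position on the splice site, the base under them, their score and the genes that hold them. A site was included when it lay in a gene body, in no annotated exon and at most 100 nt from an exon edge, all on the strand of the RNA. Of 1346716 sites in 6 lists, 57820 met this rule. They are called splice-proximal intron sites below.

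Introns are removed in steps that read short signals in the RNA. At the start of the intron, U1 snRNP pairs with the 5′ splice site. Toward its end, the branch point adenosine is bound by SF1 and then by U2 snRNP, the polypyrimidine tract by the large subunit of U2AF, and the AG of the 3′ splice site by the small subunit. Many RNA-binding proteins, PTB and TIA1 among them, also bind pyrimidine-rich stretches near splice sites.

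The sites were mapped by iCLIP2. Irradiation joins a protein to the RNA it touches, and the cDNA then ends beside the joined base. The cells were E14 mouse embryonic stem cells (ESCs) whose endogenous CTCF carries the AID2 degron, and neural progenitor cells (NPCs) obtained after 2 days of differentiation. In every group, including the controls, 1 µM 5-Ph-IAA removed the endogenous protein while 1 µg/mL doxycycline induced a Flag-tagged rescue CTCF for 24 hours. The rescue was either wild type (WT) or mutated in zinc finger 1 (ΔZF1), and cells were crosslinked with 400 mJ/cm2 at 254 nm. The sequenced controls without UV (noXL) came from the WT rescue line in both cell types, and these libraries include none from the ΔZF1 line. Each group had 4 libraries, except NPC WT with 3, and each rescue is 1 knock-in clone.

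The authors called sites on the merged libraries of a group, so each group is 1 list without replicate error and no test between groups was possible. Ranges in parentheses are 95% Wilson intervals, or ratios made from them, and cover counting error only. Read depth is unknown, and deeper libraries give longer lists. In bulk lists of this kind, more RNA of a gene cannot be told apart from more contact per RNA.

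The sequences with most WT sites show the kind of signal that was hit. Each line gives the last 60 bases of an intron in DNA letters, 5′ to 3′ on the RNA strand, read from GRCm38 (mm10), with the crosslink sites of the named list in capitals. The next base in each case is the first of the exon. In ESC WT, 3 of the 3′ splice sites with most sites within 50 nt were the following.
Tmem181b-ps, chr17:6438844-6438903, minus strand: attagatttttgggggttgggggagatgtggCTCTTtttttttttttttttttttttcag
Trim11, chr11:58987573-58987632, plus strand: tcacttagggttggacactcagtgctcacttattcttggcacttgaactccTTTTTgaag
Eif3a, chr19:60775856-60775915, minus strand: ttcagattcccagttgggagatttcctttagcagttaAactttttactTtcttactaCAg

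All 5 sites of Trim11, which encodes a ubiquitin ligase of the TRIM family, were at uridines of a uridine run. The Trim11 window held 5 in ESC WT, 1 in ESC ΔZF1 and 0 elsewhere. Tmem181b-ps is a pseudogene of a family with close copies, so its 5 ESC WT and 4 ESC ΔZF1 sites may come from a relative. Eif3a, a subunit of translation initiation factor 3, had 4 sites in ESC WT and 0 in the other lists, of which 2 lay on the CA of its terminal CAG. Gm10717 on chromosome 9, another leading locus that is not shown, held 4 ESC WT sites and is one of several similar predicted genes, so its reads are uncertain in origin.

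In NPC WT the leading 3′ splice sites were in Taok2, Tubb4b, Ddx17, Fam3c and Hist1h2be, and 4 of them are shown.
Taok2, chr7:126880320-126880379, minus strand: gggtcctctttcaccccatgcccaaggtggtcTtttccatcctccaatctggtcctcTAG
Tubb4b, chr2:25223369-25223428, minus strand: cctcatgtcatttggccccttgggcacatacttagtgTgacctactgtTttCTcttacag
Ddx17, chr15:79533211-79533270, minus strand: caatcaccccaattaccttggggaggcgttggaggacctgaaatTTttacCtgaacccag
Fam3c, chr6:22322349-22322408, minus strand: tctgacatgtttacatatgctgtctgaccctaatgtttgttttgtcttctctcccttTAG

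Taok2, a protein kinase gene, and Fam3c, which encodes a secreted protein, carried NPC WT sites on the last 3 bases of the intron and no site there in any ESC list. Tubb4b, a beta tubulin gene, held 4 sites in NPC WT, 2 in ESC WT, 1 in ESC noXL and 0 in both ΔZF1 lists. Ddx17, an RNA helicase gene that acts in splicing, held 3 in NPC WT, 2 in ESC WT and 1 in ESC ΔZF1. Some of these windows, chosen for their many sites, show 2 patterns that are also seen when all 3′ splice sites are pooled. They are sites at uridines of the tract and sites on the last bases before the exon.

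Another pattern was seen without UV, at bases where the branch point lies in many introns. The windows of Bcl2l2 and Acap2 are shown as examples with 2 noXL sites at 21 to 45 nt, chosen after their values were seen, with ESC noXL sites in capitals for Bcl2l2 and NPC noXL sites for Acap2.
Bcl2l2, chr14:54884314-54884373, plus strand: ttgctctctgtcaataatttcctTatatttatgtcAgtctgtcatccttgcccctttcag
Acap2, chr16:31101887-31101946, minus strand: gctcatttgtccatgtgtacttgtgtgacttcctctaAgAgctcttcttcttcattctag

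Both windows held a site at an adenosine, and neither held a site in any other list. The leading NPC noXL window, in Gm15564, is not shown and was also named after its values were seen. It held 3 sites at 21 to 45 nt, none of them at an adenosine. Bcl2l2 encodes a survival protein of the BCL2 family, and Acap2 a GTPase-activating protein of ARF6.

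The lists differed in how many splice-proximal sites they held. In ESCs, WT had 18286 of 451137 sites (4.05%, 4.00 to 4.11), ΔZF1 had 10356 of 231636 (4.47%, 4.39 to 4.56) and noXL had 8930 of 158968 (5.62%, 5.51 to 5.73). In NPCs, WT had 8142 of 239258 sites (3.40%, 3.33 to 3.48), ΔZF1 had 6900 of 158490 (4.35%, 4.25 to 4.46) and noXL had 5206 of 107227 (4.86%, 4.73 to 4.99). In both cell types the share was therefore lowest for WT and highest without UV, and the intervals did not overlap. The WT count was 2.05 times the noXL count in ESCs and 1.56 times in NPCs. It was 1.77 times the ΔZF1 count in ESCs and 1.18 times in NPCs, where the order turned to 0.749 when only sites at or above the median score of all lists were kept. This minimum was the same raw score for every list. The median score of splice-proximal sites was 2.11 in NPC WT and 3.65 in NPC ΔZF1, so it removed more of the WT list.

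Among intron sites alone the shares were closer and followed another order. In ESCs they were 12.8% of the WT, 14.9% of the ΔZF1 and 14.7% of the noXL intron sites. In NPCs the WT share was 13.1% (12.9 to 13.4) and the ΔZF1 share 11.4% (11.1 to 11.6), with noXL between them. The sites were spread thinly over many genes, from 4449 genes in ESC WT to 2755 in NPC noXL. Between 75.9% (ESC WT) and 91.0% (NPC noXL) of the exon edges with a site had only 1, and the 10 leading genes held 1.82% to 2.49% of a list. Protein-coding genes held 93.1% to 95.3% of the sites, and the median intron was 1116 to 1253 nt long. Most sites, 14794 in ESC WT and 4272 in NPC noXL at the extremes, were next to a splice site, and the others were next to an edge that is only the start or end of a transcript.

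Sites were sorted by distance, counted from 1 at the intron base next to the exon, and each was given to its nearest edge. The density of sites per available intron base was set against that of the far zone of the same edge, 46 to 100 nt from the 3′ splice site or 51 to 100 nt from the 5′ splice site. The edges were 72037 3′ splice sites, of which 99.7% end in AG, and 73515 5′ splice sites, of which 98.8% begin with GT.

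**Figure D1:**
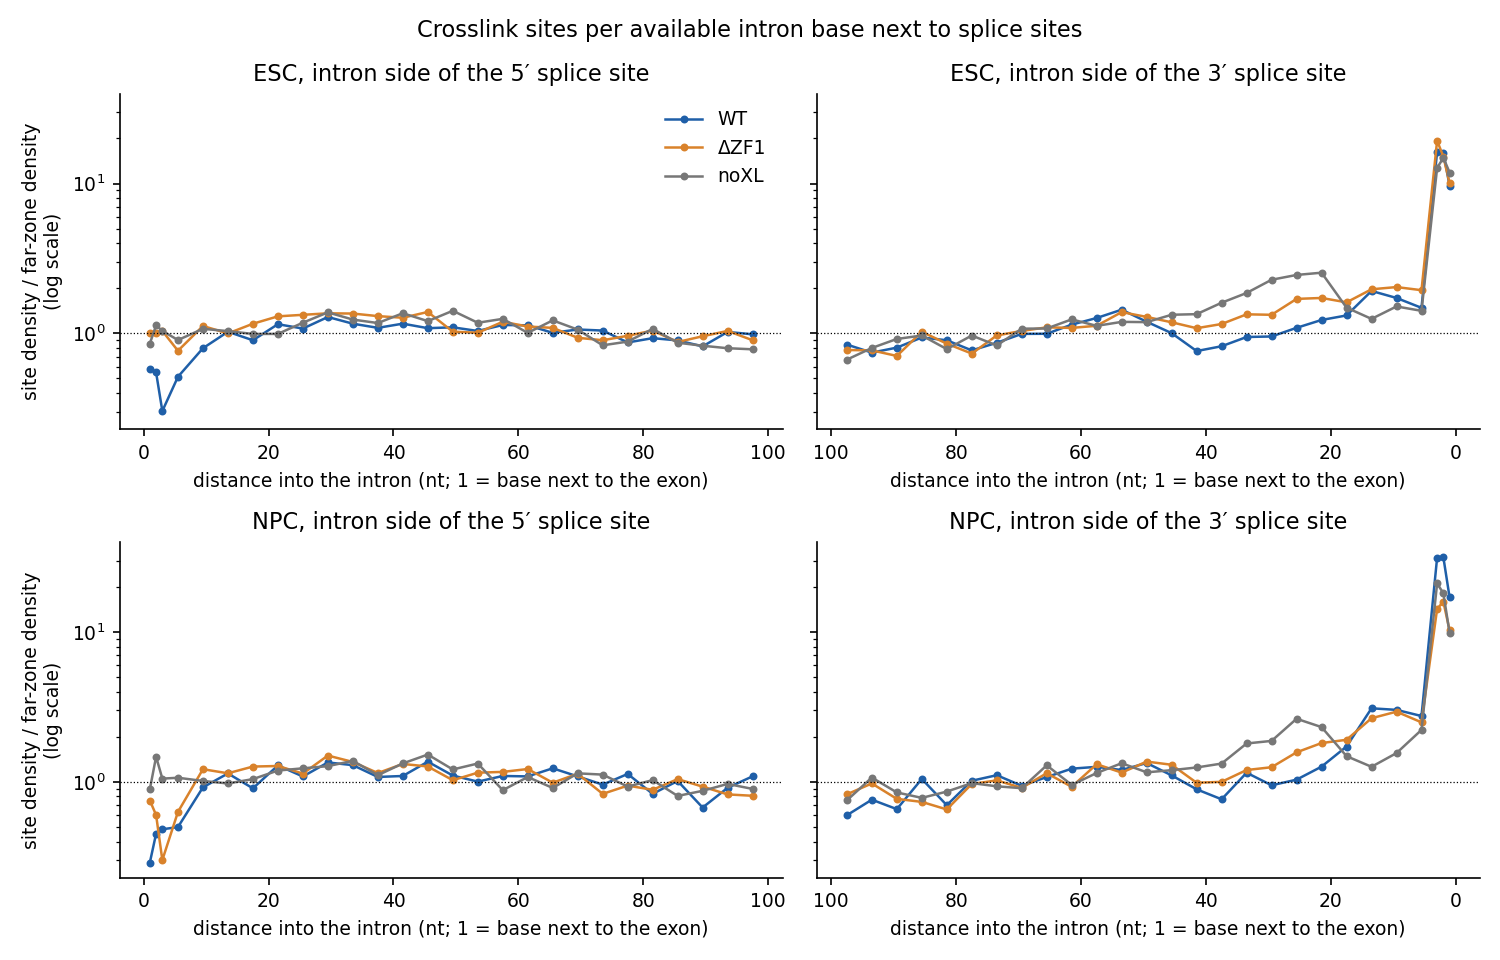
Density of sites per available intron base by distance from the 5′ (left) and 3′ (right) splice site in ESCs (top) and NPCs (bottom), relative to the far zone of each list (dotted line at 1), on a log scale. Single bases are plotted for 1 to 3 nt and bins of 4 nt beyond. All 6 lists rise steeply at 1 to 3 nt from the 3′ splice site and exceed their far zone over 4 to 20 nt as a whole. Over 21 to 45 nt the noXL lists are the highest.

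The last 3 intron bases held the highest density in every list, noXL included. ESC WT had 570, 947 and 961 sites at 1, 2 and 3 nt from the 3′ splice site and 62 at 4 nt. ESC noXL had 304, 381 and 326 sites there and 29 at 4 nt, and NPC WT had 297, 551 and 548 and then 28. Relative to the far zone, the density at 1 to 3 nt was 14.0, 14.8 and 13.1 times for WT, ΔZF1 and noXL of ESCs and 26.7, 13.5 and 16.4 times for those of NPCs. On the exon side of the same edges, ESC WT had 525 sites at the first exon base, 1027 at the second, 1246 at the third and 1335 at the fourth. Only the first exon base was low there, and in ESC WT exon bases 2 and 3 held more sites than the intron bases at 2 and 3 nt. ESC noXL held 237, 311, 264 and 264 at these bases, and in both noXL lists exon bases 2 and 3 held fewer sites than the intron bases.

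The intron base under sites at 1 and 2 nt was almost never a uridine, because nearly all of these introns end in AG. At 3 nt, 34.4% of ESC WT sites lay at a uridine, beside 33.8% of all positions there. Uridine lay under 13.4% (12.1 to 14.8) of the ESC WT and 12.7% (11.1 to 14.6) of the NPC WT sites at 1 to 3 nt, against 11.3% of all such positions. In this assay the linked base is taken as the base before the read start on the genome, so a read that starts at the first exon base is placed in the intron, at 1 nt, even where the RNA was already spliced. For sites at 2 and 3 nt, the reads as aligned begin with the last 1 or 2 intron bases, and whether the RNA was spliced was not tested. The base at the same distance from the end of the upstream exon was read for all 3 distances. At 2 nt, that exon base was a uridine at 43.0% (39.7 to 46.3) of the WT, 34.0% (29.5 to 38.9) of the ΔZF1 and 16.6% (13.0 to 20.8) of the noXL sites of ESCs. For NPCs they were 51.7% (47.3 to 56.1), 44.9% (39.0 to 50.9) and 14.2% (10.3 to 19.4), and it was 13.5% over all 63949 3′ splice sites of introns with both edges in 1 gene.

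The same order held at 1 and at 3 nt. At 1 nt the upstream exon ended in uridine at 28.3% of WT and 19.8% of ΔZF1 sites of ESCs and at 36.9% and 24.6% of those of NPCs, against 7.35% and 7.50% of the noXL sites and 6.82% of all 3′ splice sites. At 3 nt they were 32.5%, 24.4%, 37.2% and 28.3% in the UV lists, below 12.1% in both noXL lists, and 12.1% over all 3′ splice sites. At 4 to 6 nt, where at most 75 sites per list and position could be read, the intervals of UV and noXL lists overlapped. At sites 3 nt from the splice site, the last 2 bases of exon and intron were identical at 50.7% of the WT, 58.8% of the ΔZF1 and 58.7% of the noXL sites of ESCs and at 47.7%, 48.9% and 65.4% of those of NPCs, against 56.8% of all 3′ splice sites. How many of these reads came from spliced RNA was not tested.

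**Figure D2:**
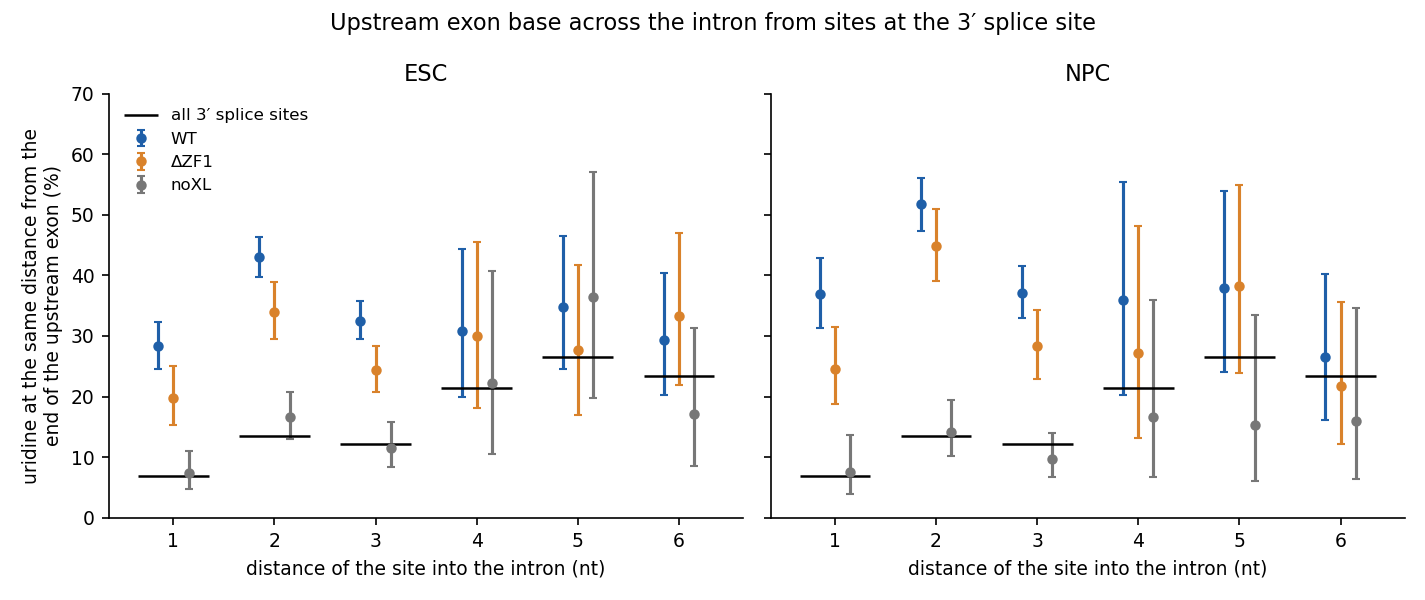
Share of sites (y axis, %) for which the base of the upstream exon at the same distance from the exon's end is a uridine, by distance of the site into the intron from the 3′ splice site (x axis, nt), with 95% Wilson intervals. Black lines give the share over all 3′ splice sites. WT and ΔZF1 lie above the noXL points and the lines at 1 to 3 nt, and the intervals overlap from 4 nt.

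The polypyrimidine tract was taken as 4 to 20 nt from the 3′ splice site. In ESCs it held 1587 WT, 929 ΔZF1 and 619 noXL sites, which is 8.68% (8.28 to 9.10), 8.97% (8.44 to 9.54) and 6.93% (6.42 to 7.48) of the splice-proximal sites. In NPCs it held 765 in WT, 779 in ΔZF1 and 375 in noXL, or 9.40% (8.78 to 10.0), 11.3% (10.6 to 12.1) and 7.20% (6.53 to 7.94). The UV lists thus had a larger share in the tract than noXL in both cell types. Per base, the tract was denser than the far zone 1.59, 1.87 and 1.42 times for WT, ΔZF1 and noXL of ESCs and 2.58, 2.46 and 1.64 times for those of NPCs.

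Uridine marked the tract sites of the UV lists but not those of noXL. Among tract sites of ESCs it lay under 68.0% (65.7 to 70.2) for WT, 60.5% (57.3 to 63.6) for ΔZF1 and 47.8% (43.9 to 51.8) for noXL. For NPCs these values were 71.2% (67.9 to 74.3), 70.5% (67.2 to 73.6) and 45.1% (40.1 to 50.1), and 48.5% of all tract positions are uridines. The ESC WT and ΔZF1 intervals did not overlap, whereas those of NPC WT and ΔZF1 did. Uridines of the tract were hit 2.26 times as often per base as its other bases by WT and 1.63 times by ΔZF1 in ESCs, and 2.63 and 2.53 times in NPCs, against 0.973 and 0.871 times in the noXL lists. In the far zone the corresponding ratios were 3.04, 2.27, 3.54 and 3.50 in the UV lists, so uridine was favoured there as well and by a larger factor. Cytidine, the other pyrimidine of the tract, lay under 18.5% of ESC WT and 19.2% of NPC WT tract sites, below its 26.5% share of tract positions.

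Runs of uridine were common around these sites. A run of 4 or more uridines included the site at 27.7% (25.5 to 29.9) of ESC WT and 27.8% (24.8 to 31.1) of NPC WT tract sites. For ΔZF1 it was 21.4% (18.9 to 24.2) in ESCs and 24.1% (21.3 to 27.3) in NPCs, and for noXL 15.5% (12.9 to 18.6) and 15.7% (12.4 to 19.8), against 14.0% of all tract positions. The most frequent 5 letters centred on a tract site were UUUUU in all 4 UV lists, at 6.49% (WT) and 3.88% (ΔZF1) of ESC and 5.49% (WT) and 4.75% (ΔZF1) of NPC tract sites, followed by UUUUC or UUUCU. The tracts hit by WT were close in composition to the others of the same genes. The tract was 74.5% pyrimidine (SD 11.6, 1465 splice sites) where ESC WT had a site and 74.4% (SD 11.2) at the other 16695 3′ splice sites of the same genes, and in NPC WT the values were 75.1% (SD 11.3, 720 sites) and 74.4% (SD 11.3, 9650 sites). For ESC noXL they were 72.2% (SD 11.3, 607 sites) and 74.6% (SD 11.3, 9028 sites).

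**Figure D3:**
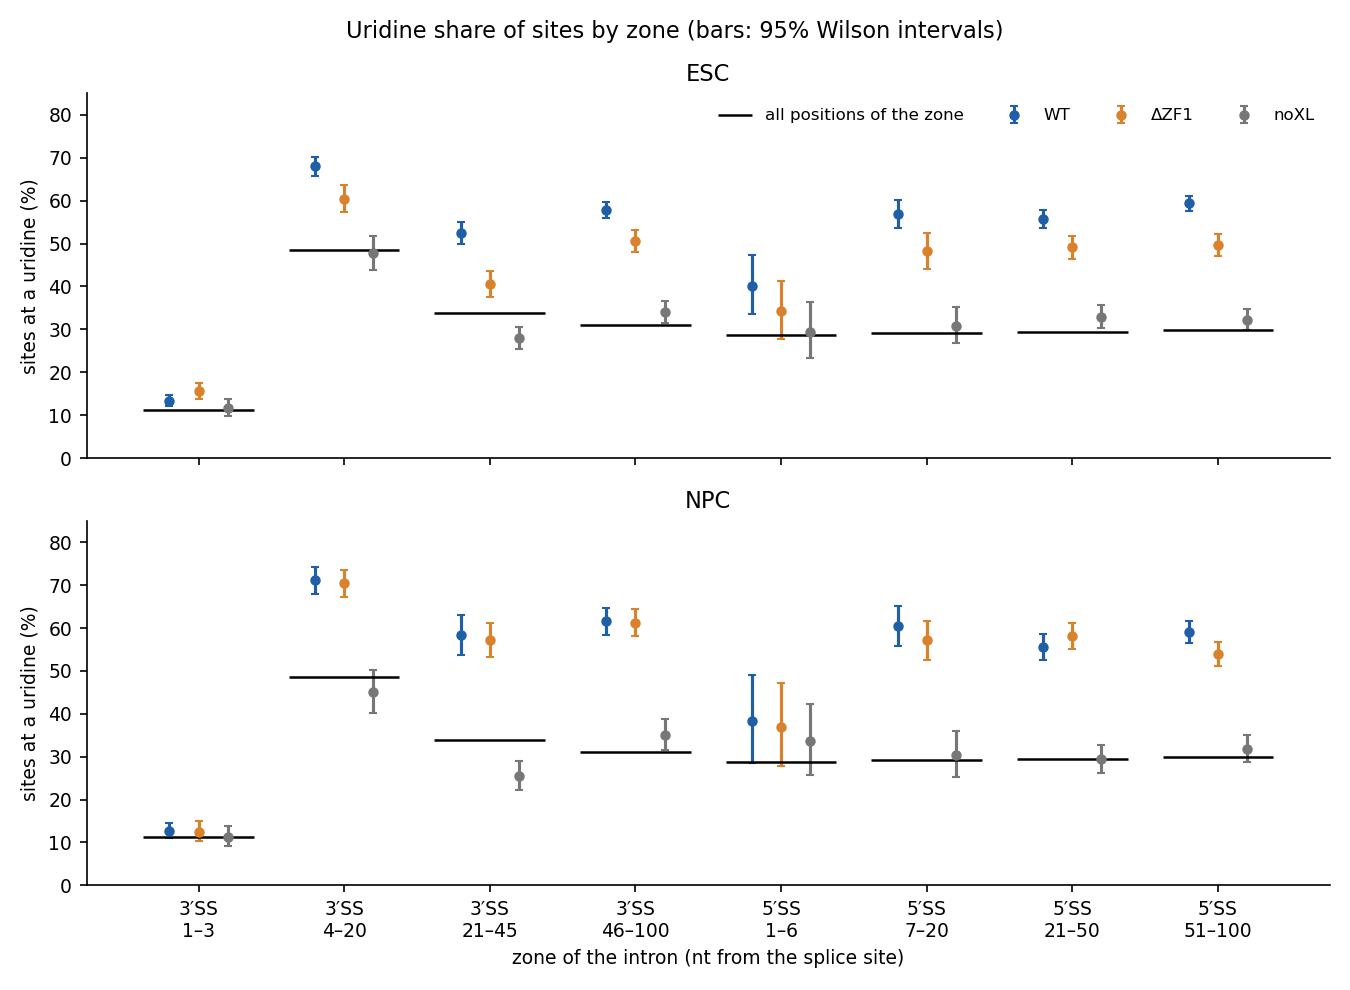
Share of sites at a uridine (y axis, %) in 8 zones of the intron (x axis, nt from the 3′ or 5′ splice site) in ESCs (top) and NPCs (bottom), with 95% Wilson intervals. Black lines give the uridine share of all positions of a zone. WT and ΔZF1 lie above the line in every zone beyond the last 3 and first 6 intron bases, and the noXL lists lie near it except at 21 to 45 nt, where they are below.

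The branch point zone was taken as 21 to 45 nt from the 3′ splice site, and here noXL had the largest share. In ESCs it held 1390 WT, 985 ΔZF1 and 1258 noXL sites, which is 7.60% (7.23 to 7.99), 9.51% (8.96 to 10.1) and 14.1% (13.4 to 14.8) of the splice-proximal sites. In NPCs it held 425 in WT, 591 in ΔZF1 and 613 in noXL, or 5.22% (4.76 to 5.72), 8.57% (7.93 to 9.25) and 11.8% (10.9 to 12.7). Relative to the far zone the density was 1.98 times in ESC noXL and 1.83 times in NPC noXL. It was 0.953 and 0.984 times in ESC WT and NPC WT, the latter 1.02 with 1 site kept per run of sites, and 1.36 and 1.28 times in the ΔZF1 lists. WT therefore showed no excess of sites in this zone, and ΔZF1 lay between WT and noXL in both cell types.

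The base under the sites of this zone differed in the same order, although the WT and ΔZF1 intervals overlapped in NPCs. Adenosine lay under 43.0% (40.3 to 45.8) of ESC noXL and 43.2% (39.4 to 47.2) of NPC noXL sites, against 24.8% of all positions. It lay under 31.9% (29.0 to 34.9) of ESC ΔZF1 sites but 17.3% (14.4 to 20.5) of NPC ΔZF1 sites, and under 20.6% (18.5 to 22.8) and 15.5% (12.4 to 19.3) of ESC WT and NPC WT sites. In the far zone the noXL lists were nearer to composition, with adenosine under 28.4% of ESC noXL and 27.6% of NPC noXL sites, where 26.0% of positions are adenosines. In the tract, adenosine also exceeded composition and lay under 21.8% of ESC noXL and 20.3% of NPC noXL sites, against 12.9% of tract positions.

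To place these sites relative to a branch point, the letters CTNAC were searched on the RNA strand with the A at 18 to 45 nt from the 3′ splice site. They were present at 12951 of 65898 3′ splice sites (19.7%), and 11891 windows had them exactly 1 time. At these, ESC noXL had 51 sites within 1 nt of the A and 89 at 3 to 10 nt, a ratio of 3.06 per base, and NPC noXL had 30 and 49, a ratio of 3.27. For WT the ratio was 1.53 in ESCs (41 and 143 sites) and 0.903 in NPCs (11 and 65), and for ΔZF1 2.16 (34 and 84) and 1.28 (13 and 54). At the A itself there were 35 ESC noXL and 17 NPC noXL sites, against 21 and 2 in ESC WT and NPC WT and 18 and 7 in the ΔZF1 lists. The letters were no more frequent at splice sites with a site at 21 to 45 nt, with 18.2% for ESC noXL and 20.8% (17.6 to 24.3) for NPC noXL. A match to these letters is a description and not a mapped branch point.

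**Figure D4:**
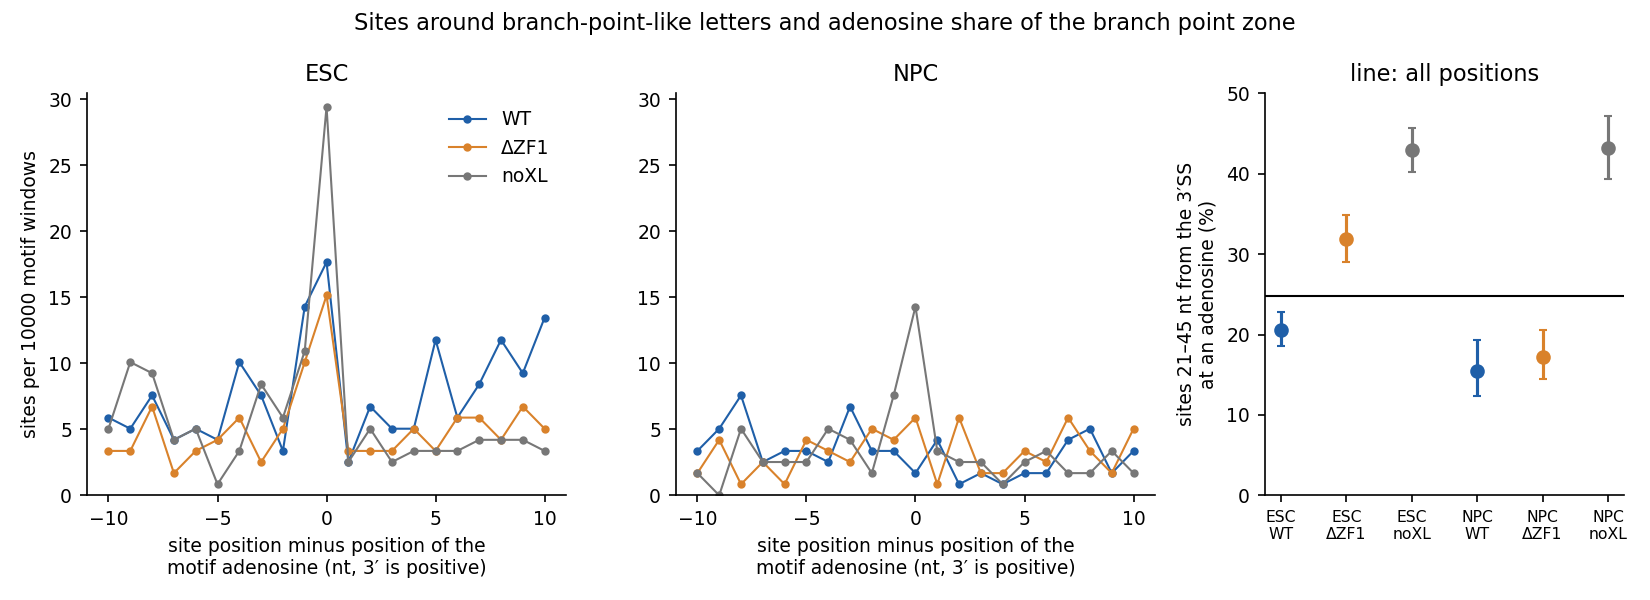
Left and middle, sites per 10000 windows by position relative to the A of CTNAC (x axis, nt) in ESCs and NPCs. Right, share of sites at 21 to 45 nt from the 3′ splice site that lie on an adenosine, with 95% Wilson intervals and a line for all positions (24.8%). The noXL lists peak at the A in both cell types, with lower peaks of WT and ΔZF1 in ESCs, and have the highest adenosine shares, 43.0% and 43.2%.

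On the intron side, the 5′ splice site showed no such peak. The first 6 intron bases, which pair with U1 snRNA, held 194 WT, 184 ΔZF1 and 187 noXL sites in ESCs and 81, 92 and 122 in NPCs. Their density was 0.467 and 0.435 times that of the far zone in ESC WT and NPC WT, 0.885 and 0.577 times in the ΔZF1 lists, and 0.953 and 1.07 times in noXL. At 7 to 20 nt the density was 0.916 to 1.17 times and at 21 to 50 nt 1.13 to 1.30 times that of the far zone over the 6 lists. Uridine lay under 56.9% and 60.6% of ESC WT and NPC WT sites at 7 to 20 nt, where 29.1% of positions are uridines, and under 30.8% and 30.4% of the noXL sites. The exon side of this edge did hold a peak, on the last exon base, with 2111 WT, 1959 ΔZF1 and 2045 noXL sites in ESCs and 571, 415 and 1125 in NPCs. Since the base before a read start is taken as linked, the reads of these sites start at the first intron base as aligned. The origin of these reads was not tested. At the next 2 exon bases ESC WT held 186 and 39 sites, and ESC noXL 134 and 39. The peak was thus present with and without UV, and the first intron base beside it held 40 sites of ESC WT and 28 of ESC noXL.

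WT and ΔZF1 counts were set against each other zone by zone, as the ratio of the first to the second. In ESCs it was 1.91 (1.78 to 2.04) at 1 to 3 nt from the 3′ splice site, 1.71 (1.58 to 1.85) in the tract, 1.41 (1.30 to 1.53) in the branch point zone and 2.02 (1.89 to 2.15) in the far zone. In NPCs it was 1.85 (1.69 to 2.02) at 1 to 3 nt, but 0.982 (0.889 to 1.09) in the tract, 0.719 (0.635 to 0.815) in the branch point zone and 0.937 (0.854 to 1.03) in the far zone. Among splice-proximal sites, the excess of WT in NPCs thus lay at the last 3 intron bases and next to transcript starts and ends. There, next to starts and ends, it was 1.45 (1.34 to 1.56), and it was small or absent in the other zones. It was not particular to these zones, since NPC WT and ΔZF1 held 168204 and 92605 exon sites. Of intron sites over 100 nt from exons they held 53801 and 53706. At the 5′ splice site the ratio was larger farther from the exon, with 194 against 184 sites at 1 to 6 nt and a ratio of 2.00 at 51 to 100 nt in ESCs, and 0.880 and 1.17 in NPCs. In both cell types the branch point zone had the lowest ratio of the 3′ splice site. Without chromosome 11, which had the highest ratio of any chromosome compared, the NPC ratios were 1.81 at 1 to 3 nt, 0.904 in the tract and 0.701 in the branch point zone.

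**Figure D5:**
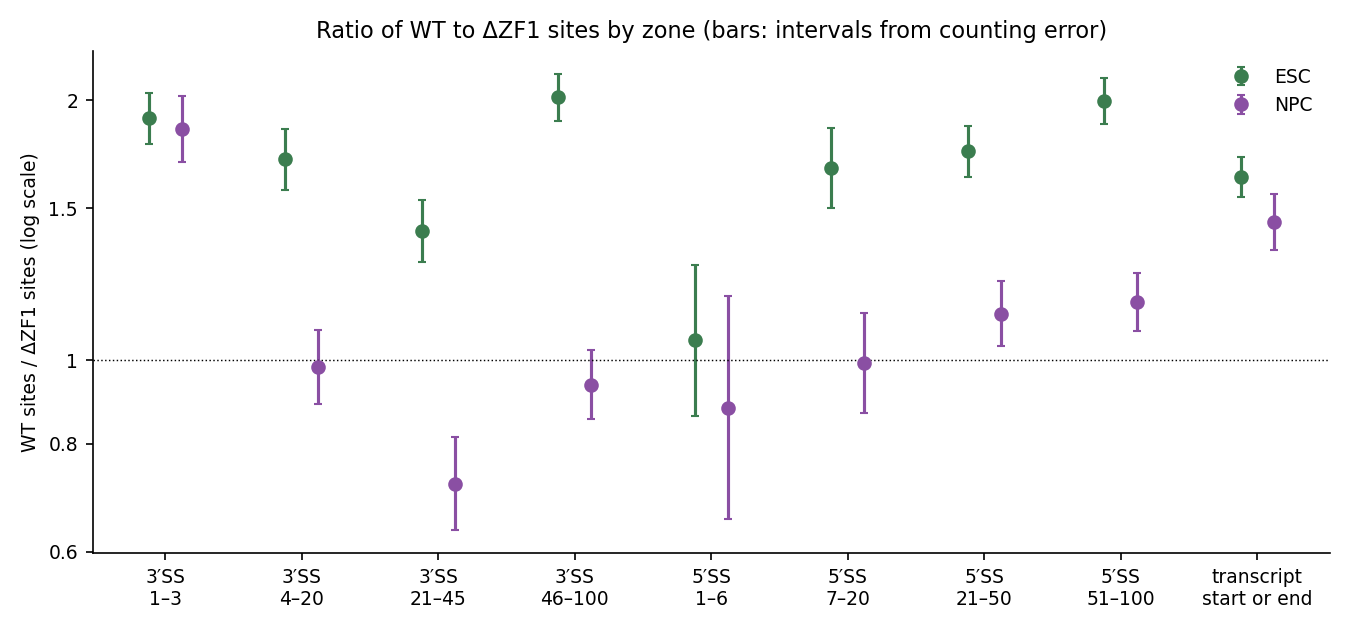
Ratio of WT to ΔZF1 sites (y axis, log scale) in 8 zones of the intron and next to transcript starts or ends (x axis), for ESCs (green) and NPCs (purple), with intervals from counting error. The ESC points lie above the NPC points, closely so at 1 to 3 nt from the 3′ splice site (1.91 and 1.85), and are furthest apart in the far zone of the 3′ splice site (2.02 and 0.937).

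Relative to noXL, the zones were ordered otherwise. WT had 2.56 times (2.34 to 2.81) the noXL sites of the tract and 2.45 times those at 1 to 3 nt in ESCs, but a ratio between 1.02 and 1.19 in the branch point zone and of 1.04 (0.849 to 1.27) at the first 6 bases of the intron. In NPCs WT had 2.11 times (1.92 to 2.31) the noXL sites at 1 to 3 nt, 2.04 times (1.80 to 2.31) those of the tract, 0.693 times (0.613 to 0.785) those of the branch point zone and 0.664 times (0.502 to 0.878) those of the first 6 bases. Over noXL, the ΔZF1 tract counts were 1.50 times as high for ESCs and 2.08 times for NPCs.

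Splice-proximal sites scored below exon sites in 5 of 6 lists. Their median stood at percentile 45.3 of the list for WT, 45.7 for ΔZF1 and 47.9 for noXL of ESCs, and at 43.4, 46.4 and 48.5 for those of NPCs. The median exon site stood at 53.4, 50.1 and 49.0 and at 53.1, 49.8 and 47.7, so NPC noXL was the exception. Within the splice-proximal sites, tract sites of WT scored low, at percentile 40.5 in ESCs and 39.7 in NPCs, and those at 1 to 3 nt higher, at 50.1 and 52.0. Sites next to transcript starts or ends scored highest, at percentile 52.5 to 59.0 over the 6 lists.

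Tract sites were also seldom found at the same place in another list. Of the ESC ΔZF1 sites, 7.43% (5.91 to 9.29) in the tract had an ESC WT site within 5 nt, against 23.8% (21.5 to 26.2) at 1 to 3 nt, 14.3% (14.1 to 14.6) in introns over 100 nt from exons and 28.8% (28.5 to 29.0) in exons. In NPCs these shares were 3.21%, 18.8%, 5.12% and 18.2%. Between cell types, 10.8% (8.84 to 13.3) of NPC WT tract sites and 28.6% (26.3 to 31.0) of those at 1 to 3 nt had an ESC WT site within 5 nt. Although noXL had its own peak at 1 to 3 nt, 5.77% (4.92 to 6.76) of the ESC WT and 4.37% (3.42 to 5.57) of the NPC WT sites there lay within 5 nt of a noXL site. In the branch point zone, 7.53% (5.38 to 10.4) of NPC WT sites had an ESC WT site within 5 nt. There, 65 of 985 ESC ΔZF1 sites and 10 of 591 NPC ΔZF1 sites had one of WT, and 2.45% of NPC noXL sites had an ESC noXL site.

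Many kinds of genes led the lists by number of splice-proximal sites. Mdn1, which acts in ribosome assembly, led ESC WT with 63 sites, and held 35 in ESC ΔZF1, 21 in ESC noXL, and 13, 11 and 14 in NPC WT, ΔZF1 and noXL. Huwe1, a ubiquitin ligase gene, held 53, 29 and 27 in ESCs and 21, 22 and 9 in NPCs, where it led WT. The other leading genes of ESC WT were Birc6 with 50, Cnot1, the scaffold of the CCR4-NOT deadenylase, with 50, and Trip12 with 45. Birc6 and Trip12 encode ubiquitin-conjugating and ubiquitin-ligating enzymes. Dst led NPC ΔZF1 with 23 sites and held 25 in ESC ΔZF1, and Macf1 held 18 in NPC ΔZF1; both encode linkers of the cytoskeleton. Top2a, a DNA topoisomerase gene, held 23 in ESC ΔZF1. Among the leading genes of NPC WT, Lrp2 held 20, Kpna2 14 and Ddx17 13.

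Marker genes of the cell types were listed unevenly. The stem cell genes Tfcp2l1, Esrrb, Zfp42, Nanog and Klf4 held 27, 16 and 11 splice-proximal sites in ESC WT, ΔZF1 and noXL, and 0, 1 and 3 in NPC WT, ΔZF1 and noXL. Esrrb held 7, 9 and 6 in the ESC lists and 0 in every NPC list. Of 9 early neural and formative genes, Dnmt3b alone held sites, with 7, 6 and 4 in NPC WT, ΔZF1 and noXL and 0 in every ESC list. Nes and Pax6 had no splice-proximal site in any list. Sox1 and Pou3f1, also of the 9, have no intron and could not hold one. Lrp2, an endocytic receptor gene, held 20, 16 and 16 sites in NPC WT, ΔZF1 and noXL and 0 in all ESC lists.

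The genes the study followed held few of these sites. Ctcf held 4, 2 and 4 in ESC WT, ΔZF1 and noXL and 1, 1 and 0 in NPCs. Podxl, which encodes a cell surface sialomucin, held 3 WT, 0 ΔZF1 and 1 noXL sites in NPCs, and 0 in the ESC lists. Grb10, an imprinted adaptor gene of growth factor signaling, held 11, 6 and 3 in NPC WT, ΔZF1 and noXL and 0 in the ESC lists. Of the 11 in NPC WT, 4 were next to a transcript start or end and 4 were 51 to 100 nt from a 5′ splice site.

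Sites per gene were compared as log2 ratios with a pseudocount of 1, scaled by each list's total of splice-proximal sites. Genes needed 20 or more such sites in both lists together, and a gene was counted when its ratio was 1 or more or -1 or less. Counting error alone is large at such counts. For ESC ΔZF1 over WT, 213 genes were compared, and 11 were higher (5.16%) and 17 lower (7.98%). Without scaling, 0 were higher and 77 lower. Lrpprc, a regulator of mitochondrial mRNA, held 30 sites in WT and 5 in ΔZF1 (scaled log2 ratio -1.55, or -0.48 with the score minimum). Psme4, a proteasome activator gene, held 30 and 6 (-1.33), and Igf2bp1, which encodes an mRNA-binding protein, held 24 and 6 (-1.02). In NPC WT and ΔZF1, these genes held 2 and 5, 13 and 12, and 9 and 3. Rangap1, which acts in nuclear transport, held 16 sites in WT and 20 in ΔZF1 (1.13), Usp48, a deubiquitinase gene, 16 and 19, just past the limit, and Top2a 20 and 23 (1.01). Psme4, Rangap1 and Usp48 were within the limits when only sites within 50 nt were counted, at -0.49, 0.61 and 0.56. Igf2bp1, at -0.62 with basic transcripts, and Top2a, at 0.84 with introns of at least 250 nt, were within the limits under several alternatives.

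Chromosome 11 weighed on this comparison. In ESCs it held 2452 WT, 944 ΔZF1 and 1246 noXL splice-proximal sites, a ratio of WT to ΔZF1 of 2.60, while the other autosomes and X ranged from 1.45 to 2.00. In NPCs it held 1090, 595 and 632, a ratio of 1.83 against 0.936 to 1.28 elsewhere. Of the 213 genes compared in ESCs, 28 were on chromosome 11, and they made up 7 of the 17 lower genes, Psme4 and Igf2bp1 among them, and 1 of the 11 higher genes, Top2a. Without chromosome 11, 9 genes were higher and 12 lower. The part of chromosome 11 in the result beyond this was not tested.

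In NPCs, 21 genes reached 20 sites in WT and ΔZF1 together. ΔZF1 was higher in 3 (14.3%), among them Macf1 with 18 sites against 9 and Dst with 23 against 12, and lower in 0 (0%). Without scaling, or scaled by the median gene, 0 were higher and 1 was lower. Among the 3 genes with at least 30 sites, Dst had a scaled log2 ratio of 1.12, Huwe1 of 0.30 and Lrp2 of -0.07. In ESCs the corresponding ratios of ΔZF1 over WT were 0.94 for Dst and -0.03 for Huwe1.

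Between cell types, NPC WT over ESC WT gave 159 genes, of which 7 were higher (4.4%) and 20 lower (12.6%), or 1 and 115 without scaling and 9 and 14 when scaled by the median gene. Lrpprc was lower, with 2 sites in NPCs and 30 in ESCs (-2.20), as were Birc6 with 6 and 50 (-1.70) and Herc4, a ubiquitin ligase gene, with 5 and 31 (-1.25, or -0.05 within 50 nt). Birc6 was at -0.98 within 50 nt and Lrpprc at -0.88 with the score minimum. Ulk1, an autophagy kinase gene, and Stag3, a meiotic cohesin subunit gene, had 0 sites in NPC WT and 23 and 22 in ESC WT. Both were named after their values were seen, and such ratios rest on the pseudocount. The highest ratios of genes with 30 or more sites were within the limits, at 0.62 for Mid1 (12 and 18), 0.58 for Top2a (13 and 20) and 0.49 for Kpna2 (14 and 23). Within 50 nt, Mid1 at 1.39 and Top2a at 1.07 were past the limit, as were Mid1 at 1.38 with 1 site per run and Kpna2 at 1.03 with the score minimum. Without scaling all 3 were lower in NPCs, at -0.55, -0.58 and -0.68. The same comparison without UV, NPC noXL over ESC noXL, gave 20 genes with 0 higher (0%) and 2 lower (10%), Usp48 with 4 and 19 sites and Ncor1, named after its value was seen, with 6 and 25. Without scaling, 0 were higher and 15 lower, and scaled by the median gene 1 was higher and 0 lower.

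Against noXL, 190 genes were compared in ESCs, and WT was higher in 12 (6.32%) and lower in 6 (3.16%). The highest was Ewsr1, an RNA-binding protein gene, with 24 sites in WT and 2 in noXL, and the lowest was Cobl with 9 and 12, both named after their values were seen. In NPCs, 12 genes were compared and WT was higher in 0 (0%) and lower in 2 (16.7%), Usp34, named after its value was seen, with 7 and 15 and Cnot1 with 12 and 24. Without scaling, WT was higher in 104 and lower in 0 genes in ESCs, and higher in 3 and lower in 1 in NPCs.

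Genes of the splicing machinery are themselves spliced, and 4 lists of them were read against these shares. Of 20 genes for branch point and 3′ splice site recognition, 17 held a site in some list, with 96, 41 and 37 sites in ESC WT, ΔZF1 and noXL and 27, 27 and 22 in NPCs. One member, Sf3b3, a subunit of the SF3b complex at the branch point, was compared, with 19 WT, 5 ΔZF1 and 9 noXL sites in ESCs. Its scaled log2 ratio was -0.92 for ESC ΔZF1 over WT, within the limits, and -1.15 for NPC WT over ESC WT, past them, where 20 of all 159 genes (12.6%) were lower. The genes of the U2AF subunits were below the minimum, with 11, 1 and 3 sites for U2af2 and 9, 5 and 4 for U2af1 in ESC WT, ΔZF1 and noXL.

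Of 17 regulators that bind pyrimidine-rich or uridine-rich RNA, 14 held a site, with 117, 85 and 50 in ESC WT, ΔZF1 and noXL and 47, 30 and 26 in NPCs. Rbm39, an RS-domain splicing factor, held 30, 18 and 14 in ESCs and 8, 6 and 8 in NPCs, and Pcbp2, a poly(C)-binding protein, held 19, 11 and 10 and then 5, 2 and 4. Ptbp1, which represses exons through the tract, held 10, 5 and 5 in ESCs and 5, 1 and 0 in NPCs. For ESC ΔZF1 over WT, 3 of these genes were compared and 0 were past the limits in either direction, with a median scaled ratio of 0.11 beside 0.01 over all 213 genes.

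All 13 genes for 5′ splice site recognition held a site, with 87, 45 and 57 in ESC WT, ΔZF1 and noXL and 37, 26 and 29 in NPCs. Luc7l2, which associates with U1 snRNP, held 19, 12 and 13 in ESCs and 10, 5 and 6 in NPCs. Rbm25, another partner of U1 snRNP, held 22, 8 and 3 in ESCs and was past the limit for ESC WT over noXL (1.49). It was 1 of 2 list members compared there, beside 12 of all 190 genes (6.32%) that were higher. The 11 neural splicing regulators held 9 ESC WT and 6 NPC WT sites, from 2 and 3 genes, and none reached the minimum for a comparison.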

How the data were processed

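The 6 site lists cover 23 CTCF iCLIP2 libraries of mouse E14 cells, grouped by their labels. According to the methods and the submitters' processing notes, reads were demultiplexed with Flexbar, aligned to mm10 with STAR and freed of PCR duplicates with UMI-tools. PureCLIP then called single-base sites on the merged alignments of a group, and the base before a read start counts as linked. Versions are not given in the sources used here. Each deposited site carries a PureCLIP score, for which no scaling to library size is described, and it served here for ranks and 1 minimum. Without read counts the depth is unknown.

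On chromosomes 1 to 19, X and Y, each site was set against all exons of GENCODE mouse release M21, and bases were read from the RefSeq GRCm38 genome. Another 1953 sites on other sequences were left out. Ties between edges went to the 3′ splice site. A site belonged to the gene that owns its edge, a protein-coding gene first. At most 1.25% of a list's sites lay at edges of several genes, and annotated edges need not be used in these cells.

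Genes named are the 5 with most sites in each UV list, the 3 highest and 3 lowest ratios among genes with at least 30 sites together, the genes the study followed, members of the fixed lists and the 5 leading 3′ splice sites of each WT list. Some items that met this rule are not reported here. The sites, lists, zones and comparisons were chosen with earlier results of these data known. Alternatives changed the distance, score, runs of sites, annotation, intron length, sites near noXL, minimum, pseudocount, scaling and chromosome 11. The steps were tested on simulated data. The software was numpy 2.4.6, scipy 1.17.1, pandas 2.3.3 and matplotlib 3.10.9 under Python 3.11.15.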

Additional observations from a re-analysis of the deposited data

Results flagged for a closer look

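The ratio of WT to ΔZF1 sites in the branch point zone lay on opposite sides of 1 in the cell types. It was 1.41 in ESCs, with 1390 and 985 sites, and 0.719 in NPCs, with 425 and 591 sites. The difference between the cell types was not tested, since each value comes from 1 pooled list per group, and NPC WT was pooled from 3 libraries in place of 4.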

How the results depend on the processing

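No paired analysis was possible because each list pools all libraries of its group, and for the same reason no replicate could be left out. The uridine share of the tract moved by less than its interval under every alternative run. For the site counts, the tract and uridine shares and the numbers of genes past the limit together, 67 recomputed values moved. The other 143 stayed within their interval or changed little. The ratios of single genes, the ratios of lists and the values of zones were each recomputed under the alternatives. Of these recomputed values, 278 stayed on their side of the limit, for a gene, or moved little. A gene within the limits was counted there even if its ratio changed sign, as for Mid1, Top2a and Kpna2 without scaling. In another 28 a gene's ratio came within the limit, in 4 it passed it, 8 values moved and 3 crossed 1. Among the gene ratios recomputed in this way, 10 were past the limit, and each came within it under at least 1 alternative. The causes of these changes were not tested, and the lower counts within 50 nt or with the score minimum follow from fewer sites.

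With a largest distance of 50 nt, the counts of sites were 11441, 6887 and 5892 for WT, ΔZF1 and noXL of ESCs and 4463 and 3459 for ΔZF1 and noXL of NPCs. The tract then held 13.9%, 13.5% and 10.5% of the ESC sites and 14.0%, 17.5% and 10.8% of the NPC sites. Genes past the log2 limit numbered 6 for ESC ΔZF1 over WT, 1 for NPC ΔZF1 over WT, 4 for NPC over ESC WT, 1 for NPC over ESC noXL, 3 for ESC WT over noXL and 0 for NPC WT over noXL. In that order, they numbered 2, 0, 3, 0, 1 and 0 with the score minimum, 179, 39, 212, 48, 165 and 30 with a minimum of 10 sites, and 77, 1, 116, 15, 104 and 4 without scaling. Without scaling the genes compared were unchanged, at 213, 21, 159, 20, 190 and 12. Alternatives that changed the sites or the minimum also changed the number of genes compared, so their counts here and below are not shares.

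With the score minimum, the counts of sites were 7172, 4446 and 5512 in ESCs and 2932, 3912 and 2957 in NPCs, and the tract held 7.18% (WT) and 7.38% (ΔZF1) of the ESC and 7.78% of the NPC WT sites. For NPCs, WT sites then came to 0.749 times the ΔZF1 and 0.992 times the noXL sites. With 1 site per run of sites, the branch point zone of NPC WT was at 1.02 times its far zone, and 15 genes were past the limit for ESC ΔZF1 over WT. Without sites at 1 to 3 nt from any exon edge, at the 5′ splice site and transcript starts and ends too, the tract held 10.5%, 10.9% and 8.22% in ESCs and 12.1%, 13.1% and 8.75% in NPCs, and 1 gene was past the limit for NPC WT over noXL. Without UV sites near a noXL site, the tract held 9.62% for ESC ΔZF1.

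With exons of basic transcripts, the tract held 9.21%, 9.66% and 7.55% in ESCs and 12.2% for NPC ΔZF1, and 1 gene was past the limit for NPC over ESC noXL and 28 for ESC WT over noXL. With introns of at least 250 nt, the genes past the limit numbered 18 for ESC ΔZF1 over WT, 1 for NPC ΔZF1 over WT, 16 for NPC over ESC WT and 1 for NPC WT over noXL. Scaled by the median gene, there was 1 for NPC ΔZF1 over WT and 1 for NPC over ESC noXL. Without chromosome 11, an alternative chosen after seeing the data, there was 1 for NPC over ESC noXL and 1 for NPC WT over noXL.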

Other observations

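Splice-proximal sites next to edges that are only a transcript start or end were not part of the splice site profiles. In ESC WT, 2210 lay before an annotated start and 1282 after an annotated end, against 1491 and 650 in ESC ΔZF1 and 1011 and 482 in ESC noXL. In NPCs the counts were 1140 and 566 in WT, 743 and 437 in ΔZF1, and 642 and 292 in noXL. Such sites lay inside the body of a gene on the same strand, so they are in RNA upstream or downstream of an alternative transcript, and starts held more of them than ends in all 6 lists.

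Short introns held a like share of the sites in every list, with 11.3% to 12.5% in introns under 200 nt. Within the tract, the count by single base was spread over the zone in ESC WT, from 62 sites at 4 nt to 132 at 11 nt, and in NPC ΔZF1 from 20 at 19 nt to 70 at 11 nt. In ESC noXL the counts ran from 25 to 46 per base at 4 to 20 nt from the 3′ splice site and from 28 to 78 at 21 to 45 nt.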
